A study of Homo sapiens with 18 samples.

Results

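The region described here is positions 671 to 900 of human 18S rRNA, the start of the central domain with expansion segment ES6S and its flanks. Its members were chosen by position alone, as the 230 nucleotides of this span in the 6 libraries of primer pair d560-d559, out of 1816 positions measured in the series. The first 145 of them, up to position 815, were also read in the 6 libraries of primer pair d562-d563. Cells were MDA-MB-231, an established breast cancer line. They carried a scrambled control (SCR) or 1 of 2 constructs labelled FBL1 and FBL2. The labels do not say what these are; they are read here as fibrillarin knockdowns, and no library measures how much fibrillarin was left. Live cells of each line received 2A3 or its solvent DMSO for 15 min at 37 °C, and the 18S rRNA was amplified and sequenced on a nanopore instrument. There is 1 library for each line, reagent and primer pair, so no value has a replicate and no test between lines was possible.

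In the folded ribosome the central domain of 18S rRNA forms the platform of the small subunit. Expansion segments are stretches that eukaryotic rRNA carries beyond the core shared with bacteria, and ES6S is the largest of the small subunit. 2A3 acylates the 2′-hydroxyl of flexible nucleotides, so a nucleotide held in a helix or by a protein usually reacts little. Fibrillarin is the methyltransferase that puts a methyl group on that same 2′-oxygen at sites chosen by guide RNAs, and a methylated 2′-oxygen cannot be acylated. Pseudouridine, the other common modification of rRNA, is made by a different enzyme.

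The sequence is shown because the calls reported here are read along it. It is that of the deposited files, written 5′ to 3′, and capitals mark the 22 nucleotides that passed the size rule given below in either direction.
Positions 671 to 900: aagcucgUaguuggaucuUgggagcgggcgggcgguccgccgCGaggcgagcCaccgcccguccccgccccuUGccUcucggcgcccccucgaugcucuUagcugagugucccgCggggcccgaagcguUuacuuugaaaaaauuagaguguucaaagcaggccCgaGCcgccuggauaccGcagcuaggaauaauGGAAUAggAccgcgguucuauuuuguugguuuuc
The region has 40 A, 68 C, 71 G and 51 U, which is 60.4% G and C against 53.7% in the other 430 positions of the primer pair. The rRNA genes are present in many copies, and coordinates in the genome were not used here.

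Each value is the percent of reads with an event at a nucleotide. The signal is the 2A3 value minus the DMSO value of the same line. Read depth in the region ran from 370131 to 644764 with d560-d559, and from 165795 to 458975 over the shared part with d562-d563. Counting errors of 2A3 values reached at most 0.0762% with d560-d559 and 0.109% with d562-d563. At low values the deposited rounding to steps of 0.1% is coarser than the counting error. Reads of a PCR product carry no molecular identifiers here and are not independent, so the errors cover counting only, and the variation between cultures is not known.

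The first comparison asked which nucleotides reacted. In SCR 39 of the 230 nucleotides had a signal of at least 1%, against 14 of 430 in the rest of the stretch. The mean SCR signal was 0.729% in the region and 0.159% in the rest, while the median was 0.1% and 0%, so a few nucleotides carried most of it. U743 was the most reactive, and C785, G852, G836, G838, U689, C713, C753, U770 and C835 followed. From C785 to C835 the SCR signal went from 10.3% down to 3.7%. The 2A3 value of G836 was 6.6% (SCR), 7.9% (FBL1) and 7.1% (FBL2). That of C753 was 5.1%, 7.1% and 5.5% in the same order. Both were highest in FBL1, and neither passed the size rule in both knockdowns.

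**Figure D1:**
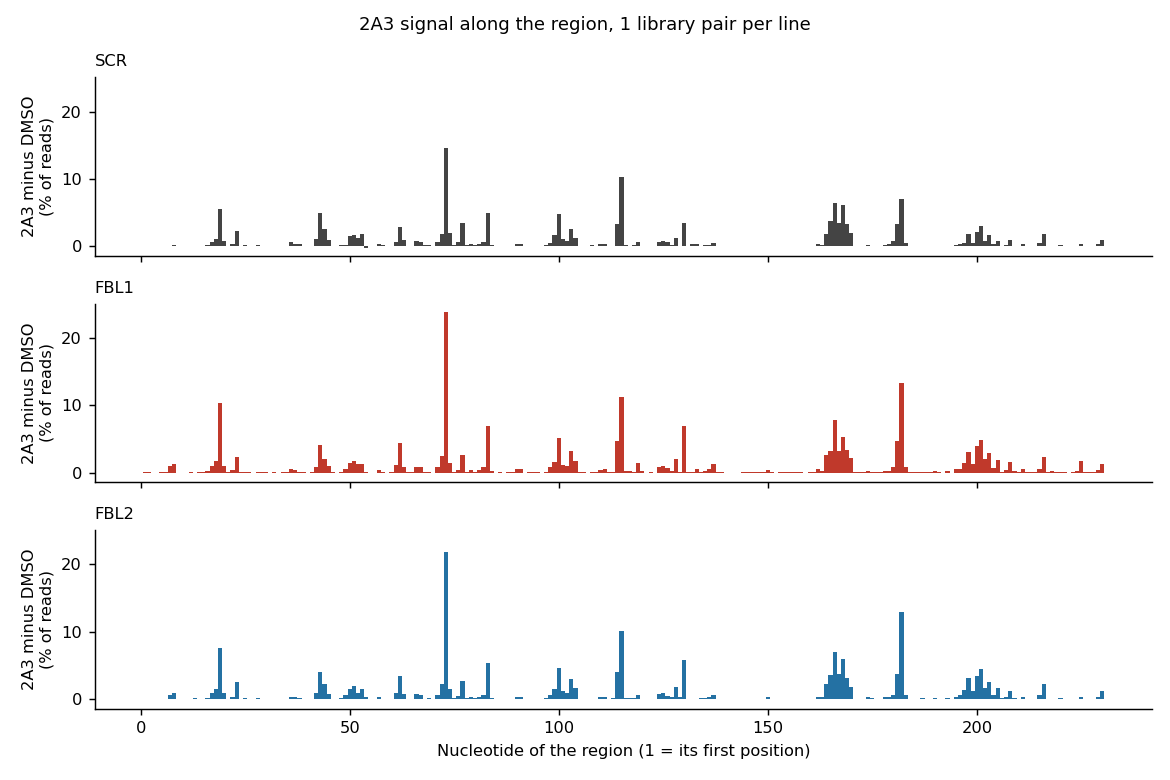
Signal, 2A3 minus DMSO in percent of reads, at each of the 230 nucleotides with primer pair d560-d559, numbered from 1 at position 671, for SCR, FBL1 and FBL2. Each bar is 1 library pair; the tallest bar is U743 in all 3 lines, at 14.6% (SCR), 23.9% (FBL1) and 21.8% (FBL2).

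DMSO background in the region was low. Its mean was 0.145% (SCR), 0.154% (FBL1) and 0.156% (FBL2). The highest value was at G807, with 1.6%, 1.4% and 1.7%, and 2A3 values there were 2.1%, 2.7% and 2.4%.

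The reactive nucleotides were set against a structure predicted from sequence alone, which uses no measured value. The region folded by itself gave 150 paired and 80 unpaired nucleotides. Of the unpaired ones 31 (38.8%) had an SCR signal of at least 1%, and of the paired ones 8 (5.33%). Mean SCR signal was 1.56% in unpaired and 0.288% in paired nucleotides. This contrast depends on the sequence folded. When the whole stretch was folded, 170 of the 230 nucleotides kept their state and the means were 1.05% and 0.614%, with U743 now paired.

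Predicted hairpin loops differed widely among themselves. The 7 nucleotides of the loop at 834 to 840, cCgaGCc, all had at least 1% in SCR, with a mean of 3.83%. The loop at 712 to 715, gCGa, had a mean of 2.4% and the loop at 769 to 774, uUagcu, one of 2.05%. The loop of 5 A at 809 to 813 had a mean of 0.02% in each of SCR, FBL1 and FBL2, and the loop at 877 to 880 had 0.3% in SCR. These loops are those of the region folded by itself. With the whole stretch folded, the stem closing 769 to 774 kept 0 of its 17 pairs and that closing 834 to 840 kept 0 of 5. The stems closing 712 to 715, 809 to 813 and 877 to 880 kept 21 of 21, 8 of 8 and 13 of 14.

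The second comparison asked how the knockdowns differed from SCR. Without any scaling, mean signal over the region was 0.729% (SCR), 1.00% (FBL1) and 0.884% (FBL2). The difference from SCR was 0.272% ± 0.00143 (counting error) in FBL1 and 0.155% ± 0.00148 in FBL2. Signal was higher than in SCR at 137 nucleotides and lower at 26 in FBL1, and higher at 89 and lower at 38 in FBL2. The rest of the stretch was also higher, by a mean of 0.0912% in FBL1 and 0.0456% in FBL2. Relative to SCR the region did not change more. Its mean was 1.37 times that of SCR in FBL1 and 1.21 times in FBL2, against 1.57 and 1.29 in the rest. A difference in overall labelling between libraries and a difference at many nucleotides cannot be told apart from 1 library per line.

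Signals were therefore also scaled, so that the mean between the 90th and 98th percentile of the whole stretch is 1 unit in each line. A unit was 1.68% (SCR), 2.14% (FBL1) and 1.95% (FBL2). A nucleotide was called when both knockdowns differed from SCR in the same direction by at least 0.3 units and by more than 1.96 times the error of the difference. This is a rule of size and not a test. Over the whole stretch of d560-d559 the rule called 2.12% of positions as rises and 1.97% as falls. In the region 12 nucleotides rose (5.22%) and 10 fell (4.35%), against 2 and 3 of the other 430. The region also held more reactive nucleotides. Among those with an SCR signal of at least 1%, 7 rose and 10 fell of 39 in the region, and 1 rose and 3 fell of 14 outside it.

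How the calls split depends on the scaling. With the scaling above 54.5% of calls were rises. Without scaling there were 16 rises and 2 falls, so 88.9% were rises. Median-ratio scaling gave 14 and 6 (70%), and 1 factor per base gave 16 and 6 (72.7%). Scaling on the 90th percentile gave 26 and 5 (83.9%), and box-plot scaling 6 and 103 (5.5%). All 12 rises were called in each of these but box-plot scaling, which kept U678 and G867. Its unit was 0.18% in SCR, close to the rounding step, and 0.446% in FBL1. Without scaling, and with median-ratio or 90th percentile scaling, keeping all 12 rises was fixed in advance. There the knockdown units were smaller relative to that of SCR than in the scaling above, and the SCR unit was no larger. Of the 10 falls, C713 and U747 were called under each of these scalings. Scaled on the region alone, in place of the whole stretch, 4 of the 12 rises were called, U689, U743, U800 and G852, and 3 of the 10 falls, C713, U747 and C785.

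**Figure D2:**
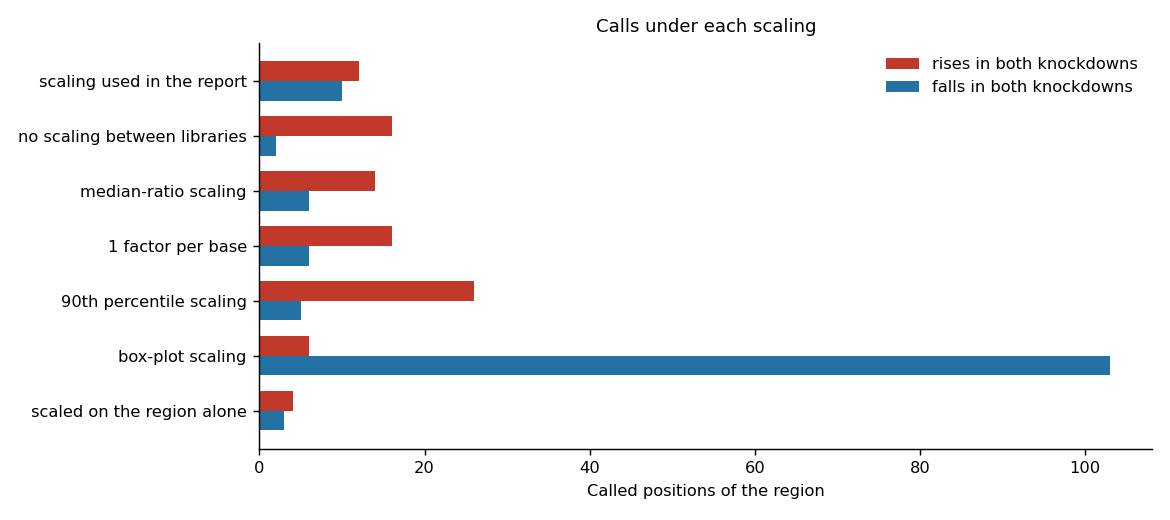
Number of nucleotides of the region called as rises and as falls in both knockdowns with d560-d559 under 7 scalings, as horizontal bars from 0. Rises outnumber falls, 12 against 10, with the scaling used in the report and more so without scaling, 16 against 2; box-plot scaling gives 6 against 103.

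**Figure D3:**
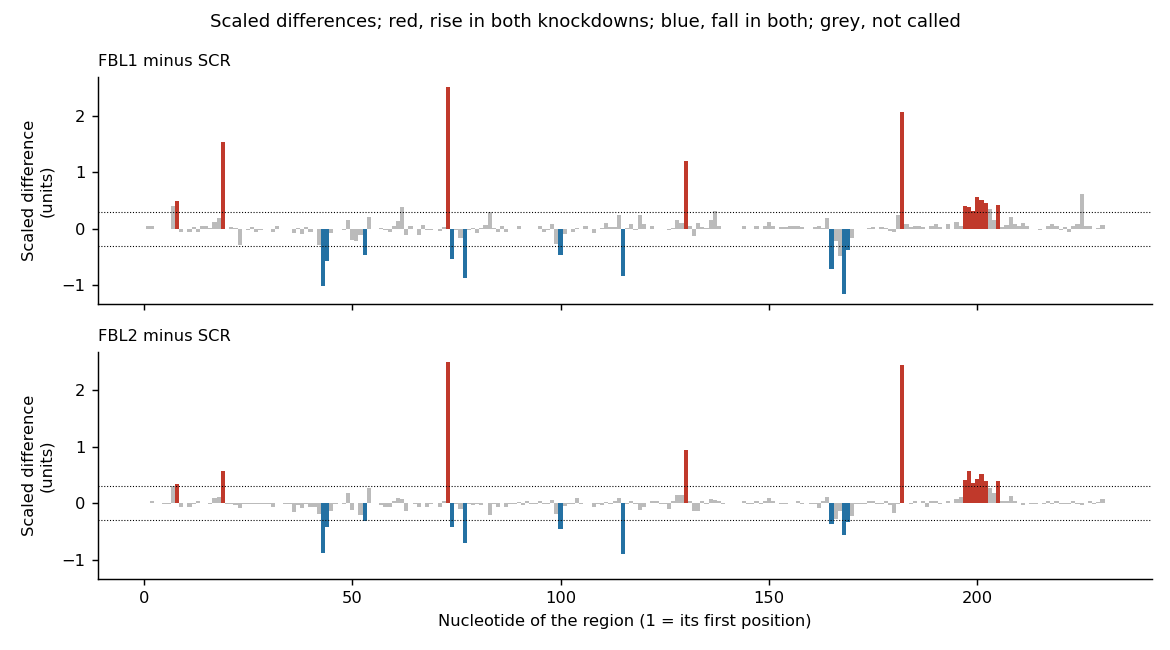
Scaled difference from SCR, in units, at each of the 230 nucleotides with d560-d559, FBL1 above and FBL2 below. Red bars are the 12 rises and blue bars the 10 falls, dotted lines mark 0.3 units either way, and the 7 rises between nucleotides 197 and 205 stand next to each other.

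The 12 rises were at 5 U, 4 A and 3 G, and none of the 68 C rose. In the rest of the stretch the 2 rises were at 1 A and 1 U, and none of the 104 C rose. All 12 rises of the region had a higher unscaled signal in both knockdowns. The rule fixes this outcome, since the unit of each knockdown is larger than that of SCR. The 2A3 value was 1.61 to 4.67 times that of SCR in FBL1 and 1.34 to 3.33 times in FBL2. The highest of these ratios was at U678, where the SCR value was 0.3% and rounding limits it.

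U743 had the largest change. Its 2A3 value was 14.7% ± 0.0538 (SCR), 24.0% ± 0.0708 (FBL1) and 21.9% ± 0.0762 (FBL2), with 0.1% in every DMSO library. In scaled values it rose by 2.50 units in FBL1 and by 2.50 units in FBL2. A shift of 3.45% in its scaled SCR value would equal the threshold, so its size depends on the factor more than that of weaker nucleotides does.

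G852 gave 7.2% ± 0.0377 (SCR), 13.5% ± 0.053 (FBL1) and 13.1% ± 0.0589 (FBL2). Both knockdowns were close to each other and far above SCR. The scaled rise was 2.06 units in FBL1 and 2.45 units in FBL2.

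U689 gave 5.8% ± 0.034, 10.6% ± 0.0474 and 7.8% ± 0.0459 in SCR, FBL1 and FBL2. Here the knockdowns differed from each other, with scaled rises of 1.53 and 0.57 units. U800 gave 3.4% ± 0.0259, 6.9% ± 0.0379 and 5.8% ± 0.0392, and its DMSO value was listed at 0 in all 3 lines. At U678 the 2A3 values were 0.3%, 1.4% and 1.0%. Its neighbour G677, named after its values were seen, had 0.2%, 1.1% and 0.8% and missed the threshold in FBL2 by less than 0.01 units.

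The other 7 rises stood together between positions 867 and 875. They were G867, G868, A869, A870, U871, A872 and A875, and all 9 nucleotides of the span had a higher signal in both knockdowns. The mean signal of the span was 1.29% (SCR), 2.48% (FBL1) and 2.27% (FBL2). For SCR, FBL1 and FBL2 in that order, G868 had 2.0%, 3.3% and 3.4%. A870 had 2.2%, 4.0% and 3.4%, and U871 had 3.3%, 5.3% and 4.8%. The less reactive A869, A872 and A875 had SCR values of 0.6%, 0.9% and 0.8%, against 1.4%, 2.1% and 1.9% for FBL1 and 1.4%, 1.8% and 1.7% for FBL2. In every one of the 7 the SCR value was the lowest of the 3 lines, which the rule for a rise nearly fixes. None of the 7 was called when scaled on the region alone, with mean changes of 0.174 to 0.272 units, and at a threshold of 0.5 units U871 was the only one called. Without DMSO subtraction G868 and A869 were not called, and with box-plot scaling G867 was the only one called.

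**Figure D4:**
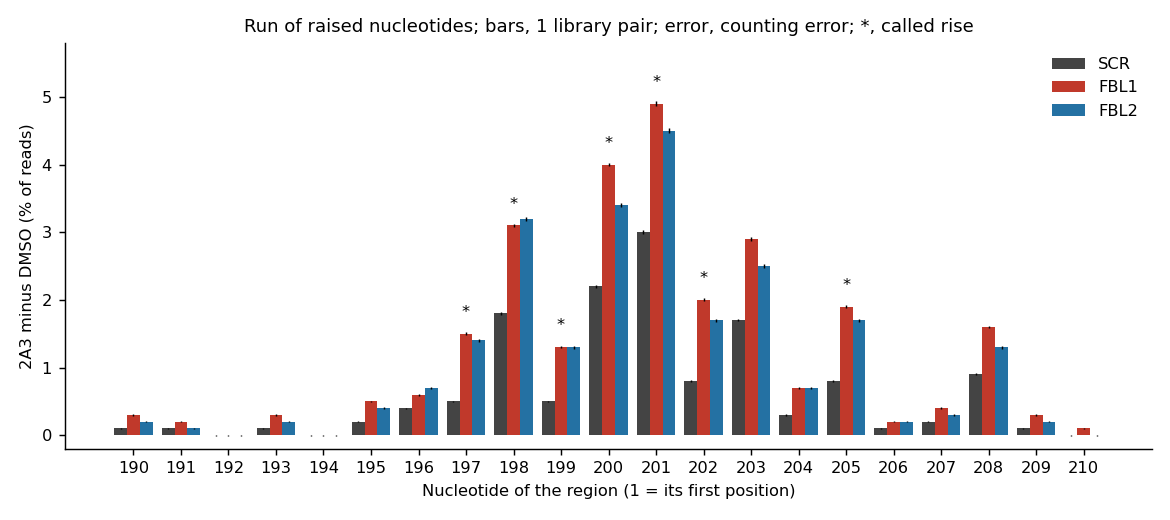
Signal, 2A3 minus DMSO in percent of reads, at nucleotides 190 to 210 of the region in SCR, FBL1 and FBL2, 1 library pair per bar with its counting error. Stars mark the 7 called rises, nucleotides 197 to 202 and 205, where the FBL1 and FBL2 bars are both above SCR; the tallest is U871, nucleotide 201.

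In the predicted structure this span lies in the first strand of a stem of 14 pairs, 13 of which were also predicted with the whole stretch folded. The 2 strands are shown because the rises lie on one side of it.
First strand, 863 to 876: uaauGGAAUAggAc
Second strand, 881 to 894: guucuauuuuguug
The first strand held 7 rises and the second none. The strands also differed in SCR, where 4 of 14 nucleotides of the first and 1 of 14 of the second had a signal of at least 1%. Mean signal of the first strand was 0.886% (SCR), 1.71% (FBL1) and 1.56% (FBL2), and of the second 0.25%, 0.371% and 0.3%.

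Known modified nucleotides come next, from a list of 4 2′-O-methylated sites and 8 pseudouridines of the region taken from general knowledge. At all 12 the base in the files matched the list. G867, a 2′-O-methylated site and the first nucleotide of the run described above, was the only listed site called. Its 2A3 value was 0.7% ± 0.0117 (SCR), 1.7% ± 0.0188 (FBL1) and 1.6% ± 0.0206 (FBL2), with 0.2% in every DMSO library. Its scaled rise was 0.40 and 0.42 units, as large as that of neighbours that are not on the list.

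The other 3 methylated sites changed by less than 0.3 units. G683 gave 0.7%, 0.6% and 0.8% against a DMSO value of 0.6% in each line. C797 gave 0.4%, 0.5% and 0.5%. U799, next to the rise at U800, gave 0.3%, 0.5% and 0.5%, with DMSO values of 0.3%, 0.3% and 0.2%. With d562-d563 its 2A3 values were 0.3%, 0.4% and 0.4%. None of the 8 pseudouridines was called. The highest among them were U866, at 0.4%, 0.7% and 0.8%, and U686, at 0.4% in each line.

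The 10 falls were at 5 C, 3 G and 2 U, and none of the 40 A fell. In the rest of the stretch all 3 falls were at C, and none of the 116 A fell. With 1 factor per base, C713 was the only C of the region still called as a fall. All 10 had an SCR signal of at least 1%, between 1.8% and 10.3%. They are falls of scaled values. The unscaled signal was lower in both knockdowns at 7 of them, C713, G714, C723, G744, U747, C835 and G838. It was not at U770, C785 and C839, where FBL1 was above SCR.

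C713, in the predicted loop at 712 to 715, had 2A3 values of 5.1% ± 0.0318 (SCR), 4.3% ± 0.0301 (FBL1) and 4.2% ± 0.0335 (FBL2). SCR was the highest line, and the scaled fall was -1.01 and -0.87 units. Beside it G714 had 2.8%, 2.3% and 2.4%. G744 and U747, next to the rise at U743, had 2.2%, 1.6% and 1.7%, and 3.7%, 2.8% and 3.0%. The 2 directions therefore met within 5 nucleotides, from U743 to U747.

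In the loop at 834 to 840, predicted only with the region folded by itself, C835 had 3.7%, 3.3% and 3.7%. G838 had 6.2%, 5.4% and 6.1%, and C839 had 3.3%, 3.4% and 3.3%. For these 3 the FBL2 value was within 0.1% of SCR, so the called fall in FBL2 comes from the division by a larger unit. C785 had 10.5%, 11.5% and 10.5%, and U770 had 5.5%, 5.9% and 5.4%. C723 had 1.8%, 1.4% and 1.6% and only just passed in FBL2, at -0.30 units.

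The last comparison set the region against the same nucleotides read with d562-d563. It is another amplicon of the same lines and not a biological replicate. Over the 145 shared nucleotides the signals of the 2 primer pairs had a Pearson correlation of 0.997 in SCR, 0.997 in FBL1 and 0.996 in FBL2. This is a description across positions that share a sequence and a source. Over the 25 with at least 1% in SCR the d562-d563 signal was a median of 0.904 times that of d560-d559 in SCR. The widest gap was at U743, 1.4% in SCR and 2.6% in FBL1.

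Over the whole stretch of d562-d563 the rule called 1.14% of positions as rises and 1.01% as falls, with a unit of 3.00% in SCR. In the shared part it called 3 rises, U689, U743 and U800, and 1 fall, C713. With d560-d559 it called 4 rises and 7 falls there. The 4 shared calls are 36.4% of those of d560-d559 and 100% of those of d562-d563. The threshold of 0.3 units was 0.504% of reads in SCR with d560-d559 and 0.899% with d562-d563, so the 2 counts rest on unlike sizes in reads. All 11 d560-d559 calls had both knockdowns on the same side of SCR in scaled d562-d563 values. At C723 these differences were only -0.0113 (FBL1) and -0.0217 units (FBL2).

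With d562-d563 the 2A3 values of U743 were 13.3% (SCR), 21.4% (FBL1) and 20.3% (FBL2). U800 had 3.4%, 6.3% and 5.8%, and U689 had 4.8%, 9.5% and 6.3%, so at U689 FBL1 was again well above FBL2. C713 had 4.7%, 4.1% and 3.8%. U678 had 0.3%, 1.1% and 0.7%, again lowest in SCR, and its scaled changes of 0.22 and 0.12 units were under the threshold.

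The gap between primer pairs gives a rough technical yardstick. It is a gap in signal level and not in the change from SCR. Part of it was common to the lines, with d562-d563 at a median of 0.904 (SCR), 0.917 (FBL1) and 0.917 (FBL2) times d560-d559. A change that does not exceed it may therefore still be alike in both pairs. Of the 4 rises 3, U678, U743 and U800, had unscaled changes larger than the widest gap between pairs at that nucleotide in both knockdowns and both pairs. U689 did not, since its smallest change, 1.5%, equalled its gap. Of the 7 falls C713, G744 and U747 did. G714 was lower in all 4 unscaled comparisons without exceeding its gap of 0.5%. C723, U770 and C785 were not lower in all 4.

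**Figure D5:**
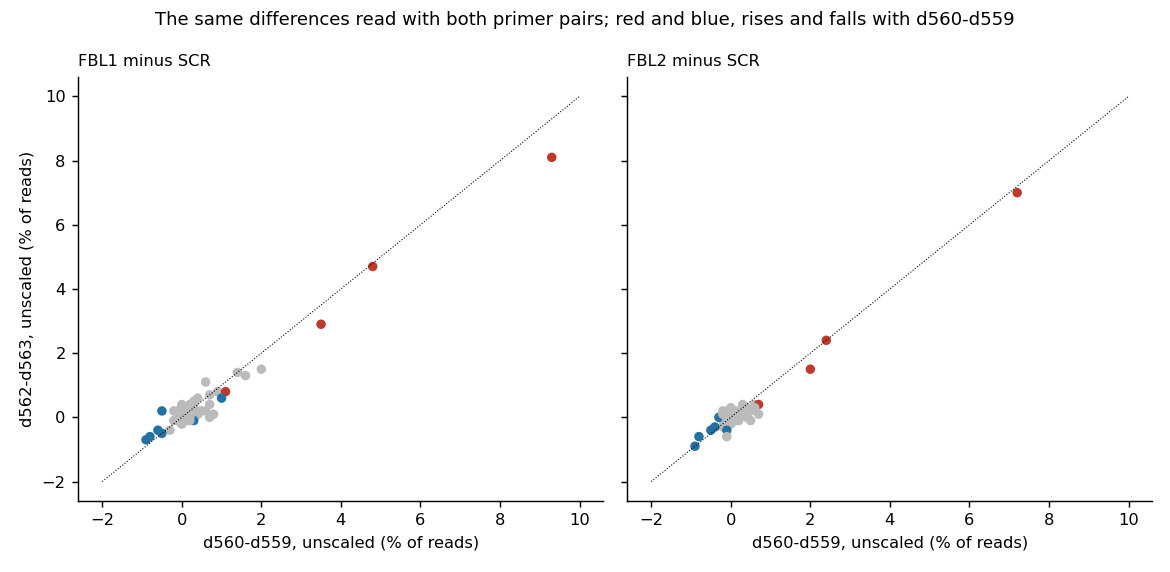
Unscaled difference from SCR in percent of reads at the 145 shared nucleotides, with d560-d559 on the x axis and d562-d563 on the y axis, FBL1 left and FBL2 right; the dotted line marks equal values. The point farthest right in both panels is U743, and the 4 red points, rises with d560-d559, are above 0 with both primer pairs.

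Calls were also counted in each knockdown alone. FBL1 gave 18 rises and 11 falls in the region, where 3.18% and 2.42% of the whole stretch were called. FBL2 gave 12 and 10, where 2.27% and 1.97% were called. All FBL2 calls were also FBL1 calls, and both use the same SCR library. FBL1 alone rose at 6 nucleotides, G677, U732, C753, G807, G873 and G895, and fell at A837. G895, named after its values were seen, had 2A3 values of 0.4% (SCR), 1.9% (FBL1) and 0.5% (FBL2). G873 lies inside the run at 867 to 875, with 1.8%, 3.0% and 2.6%, and missed the threshold in FBL2 at 0.27 units.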

How the data were processed

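Per the labels' protocols, 18S rRNA of 2A3- and DMSO-treated cells was amplified and sequenced on a nanopore instrument. The submitters' processing notes name Bowtie2 and SAMtools, with no version. Not given in the sources used here are the build, the event counted and whether duplicate wells were pooled. Reactivity was deposited as a fraction of the reads at a position, which the authors rounded to steps of 0.1%. The deposited coverage, a signal, is read depth. DMSO was subtracted at positions with at least 100 reads, and values listed at 0 took the error at 0.05%. The recomputed differences equalled the authors' deposited ones wherever these exist. None exists for SCR with d560-d559, the reference of the calls with that primer pair, so the check does not cover it.

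The members and lists were chosen with earlier results of these data known. Named positions are all called ones, the 10 with the highest SCR signal, listed modified sites and the highest DMSO value; others are named as chosen later. RNAfold 2.7.2 predicted structures at 37 °C. On simulated reads the rule recovered the changes drawn when the true scale factors were used; falls were drawn where SCR signal allowed one, and the rises drawn lay at weaker positions. With estimated factors, as in the report, falls were missed at strongly reactive positions when many positions changed, and a few unchanged positions were called. The first versions of this simulation, which required recovery with estimated factors, failed. Calls at strongly reactive positions therefore depend on the factor, and how many of the printed calls are false was not measured. Python 3.11.15, numpy 2.4.6, pandas 2.3.3, scipy 1.17.1 and matplotlib 3.10.9 were used.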

Additional observations from a re-analysis of the deposited data

How the results depend on the processing

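No paired analysis was possible because there is only 1 library for each line, reagent and primer pair. With d560-d559, 12 rises and 10 falls became 16 and 2 without scaling, 26 and 5 under 90th percentile scaling, 6 and 103 under box-plot scaling and 4 and 3 when scaled on the region alone. Median-ratio scaling and 1 factor per base each left 6 falls, and a threshold of 0.5 units left 5 rises and 4 falls. With FBL1 in the place of SCR there were 3 rises and 4 falls, and with FBL2 there 0 and 1. With d562-d563, 3 rises and 1 fall became 6 and 29 with box-plot scaling and 0 rises with either knockdown in the place of SCR. Its falls were 0 without scaling, with the sliding mean of 3 positions, scaled on the region alone or at 0.5 units. They were 2 with 1 factor per base or without FBL2, 3 at 0.2 units and 7 with the 90th percentile.

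Reversed mean changes, in units, were as follows. Without scaling U770 was at 0.0595 and C785 at 0.268. With 1 factor per base C785 was at 0.328 and C839 at 0.0203, and with the sliding mean, whose window takes in U743, G744 was at 0.422. Box-plot scaling put U689 at -8.22, U743 at -22.1, U800 at -2.58, G852 at -4.9, G868 at -1.79, A870 at -2.71 and U871 at -4.52. The box-plot unit was 2.48 times that of SCR in FBL1 and 1.875 times in FBL2. In the scaling used in the report these ratios were 1.27 and 1.16. Apart from the window at G744, the cause of the reversals was not tested.

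The unscaled mean change without DMSO subtraction was 0.281% for FBL1 and 0.166% for FBL2, and as a median 0.1% and 0%. The gap between unpaired and paired means in SCR, 1.27%, was 0.439% with the whole stretch folded and 1.23% without DMSO subtraction. Without DMSO subtraction 9 rises and 7 falls were called with d560-d559. Adding the rounding error left all counts as they were. The lack of replicate libraries limits every call.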
